A study of Mus musculus with 10 samples.

Results

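The core genes of the mammalian circadian clock were followed in C2C12 cells, a mouse myoblast line, after transfection of a miR-142-3p mimic. The 10 genes were Arntl, Clock, Per1, Per2, Per3, Cry1, Cry2, Nr1d1, Nr1d2 and Dbp. They were found by their symbol among the non-control spots of the array, and all 14 of their probes were used, out of 55681 different probes for 34607 named genes. Cells kept in growth medium had received 150 nM of the mimic, a synthetic copy of the miRNA, or of a scrambled sequence, both by lipid transfection, and about 60% of the cells were estimated to have taken it up. RNA was taken 72 hours later from both groups and hybridised to 1-colour Agilent arrays. The labels name 6 mimic replicates and 4 scramble replicates, given as independent transfections. The 10 scans, however, lay on 5 array positions that were each scanned on 2 days. The values below are therefore those of 3 mimic arrays and 2 scramble arrays. All 4 scramble titles carry a remark about a re-analysis that no mimic title has, and no label used here explains it. The labels also give neither the hour of day at collection nor a step that synchronises the cells.

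In the clock of mammalian cells, the proteins of Arntl (also called Bmal1) and Clock bind E-box elements as a pair and switch on the Per and Cry genes, whose products return to the nucleus and silence that pair. A further loop runs through Nr1d1 and Nr1d2, which encode the REV-ERB repressors of Arntl, and through output factors such as Dbp. Myoblasts hold this clock as most cells do, and in muscle it is linked to myogenic gene expression. Arntl is a reported target of miR-142-3p, which is why these genes were set beside the mimic.

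The mature miRNA is shown because its seed, bases 2 to 8 in capitals, is the stretch that pairs with target transcripts. The sequence is that of RefSeq (GRCm38.p6, chr11:87756903-87756925, plus strand), and the labels do not give that of the purchased mimic.
mmu-miR-142a-3p: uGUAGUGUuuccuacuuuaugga
The complement of this seed, ACACTAC, occurred in 0 of the 14 clock gene probes and in 144 of all 55681 probes (0.259%), searched on the probe's own strand. This says only that these letters are not in the probes.

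The probe of Nr1d1 is shown because it carries 1 of the 2 differences nearest to the threshold. The probe annotation deposited with the scans places its 60 bases over 503 genomic bases, chr11:98630526-98631028 on the minus strand of mm9. The probe therefore crosses a splice junction.
Nr1d1 probe: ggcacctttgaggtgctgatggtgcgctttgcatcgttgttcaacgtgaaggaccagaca

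The promoters of Per1 and Nr1d1, the genes nearest to the threshold, and of Arntl, the reported target, are also shown, from 250 bases before to 50 bases after the RefSeq start (GRCm38.p6). In Per1 (chr11:69098699-69098998, plus strand) the capitals mark an E-box, CACGTG. In Nr1d1 (chr11:98775328-98775627, minus strand) they mark CACGTT read on the opposite strand. In the second of the Arntl windows (chr7:113207261-113207560, plus strand) they mark TAGGTCA, the core of the element bound by REV-ERB and ROR proteins.
Per1 promoter: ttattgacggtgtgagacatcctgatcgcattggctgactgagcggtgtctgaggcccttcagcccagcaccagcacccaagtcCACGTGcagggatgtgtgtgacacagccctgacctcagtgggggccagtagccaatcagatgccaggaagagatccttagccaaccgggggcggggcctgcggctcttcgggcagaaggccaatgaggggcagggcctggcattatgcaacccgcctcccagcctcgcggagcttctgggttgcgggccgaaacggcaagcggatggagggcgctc
Nr1d1 promoter: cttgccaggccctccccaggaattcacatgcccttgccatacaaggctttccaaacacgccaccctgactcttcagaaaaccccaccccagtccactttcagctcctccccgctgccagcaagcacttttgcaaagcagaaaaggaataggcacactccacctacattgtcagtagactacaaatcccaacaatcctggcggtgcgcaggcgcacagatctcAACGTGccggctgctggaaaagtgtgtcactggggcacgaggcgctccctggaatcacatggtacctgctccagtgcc
Arntl promoter: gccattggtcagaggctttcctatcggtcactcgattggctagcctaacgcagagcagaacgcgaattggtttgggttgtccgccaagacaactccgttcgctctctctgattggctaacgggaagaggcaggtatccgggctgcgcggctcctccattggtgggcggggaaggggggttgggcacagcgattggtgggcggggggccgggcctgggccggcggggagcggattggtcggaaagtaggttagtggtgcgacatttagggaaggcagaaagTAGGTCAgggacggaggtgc
Windows were at hand for 9 of the 10 genes, and Per2 had none. Both strands were searched for 4 motifs, and each window shown holds 1 match. The E-box CACGTG was found in Cry1 and Per1 and in 7.15% of all 32851 promoter windows. The related CACGTT was found in Cry1, Cry2 and Nr1d1 and in 4.68% of all windows. The D-box TTATGTAA, which Dbp binds, was found at 2 places in Per3 and in 0.938% of all windows, and the REV-ERB and ROR element core TAGGTCA was found in Arntl and in 2.61%. These matches are letters and not measured sites.

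Levels are given as normalised log2 signal, the log2 of the processed intensity minus the 75th percentile of the same scan, averaged over both scans of an array. Differences are mimic minus scramble on this log2 scale, with the standard error (SE) and 95% limits of limma's fit and p-values adjusted by Benjamini-Hochberg over all 13677 genes tested. Testing was limited to probes that the scanner software marked as well above background in at least 4 of the 10 scans. Although the labels speak of independent transfections, no header ties the 5 arrays to separate cultures. If they were not separate, p-values reflect only how far these arrays spread, which may be technical.

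Of the 10 clock genes, 7 were tested, and 0 of them passed an adjusted p of 0.05 in limma's test. Of all genes tested, 9.74% passed, 5.86% being higher and 3.88% lower with the mimic. At an unadjusted p of 0.05 the count was 2 of 7 clock genes, Per1 and Nr1d1, against 25.3% of all genes. The mimic and scramble arrays did not overlap for 5 of 7 clock genes, against 42.6% of the whole table. The differences were positive for 3 genes and negative for 4, with a median of −0.12, and the median over all genes was 0.093. With 9.74% of the table called, a count of 0 of 7 is near the background.

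**Figure D1:**
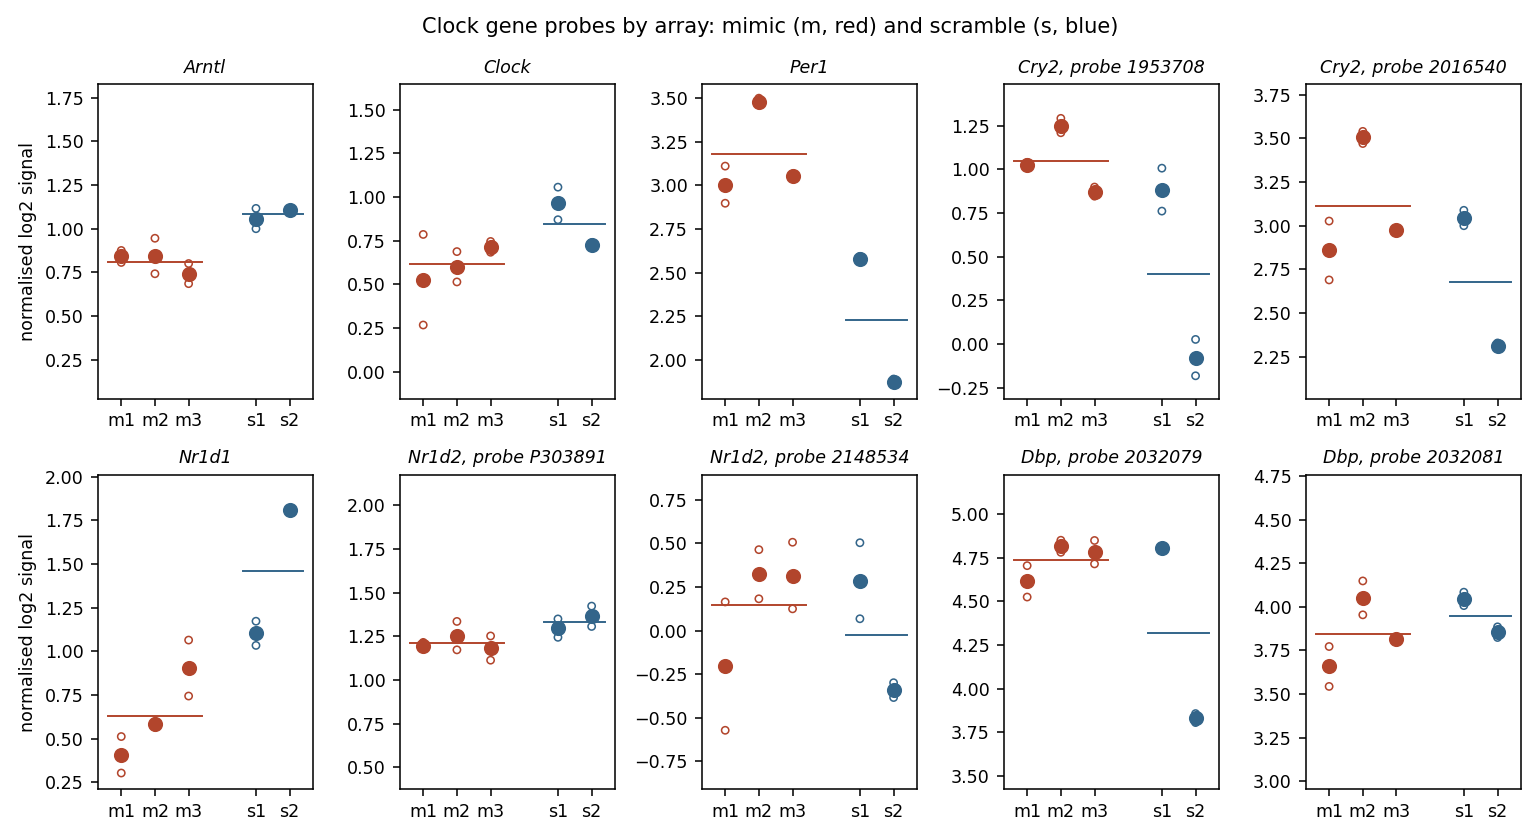
Normalised log2 signal (vertical axis) of the 10 tested clock gene probes on mimic arrays 1 to 3 (m1 to m3, red) and scramble arrays 1 and 2 (s1 and s2, blue). Filled points are arrays, open points are the scans of each array, and lines are group means. All panels span the same number of log2 units, and the scramble arrays lie furthest apart for the brighter Dbp probe (0.98) and the dimmer (0.96) and brighter (0.73) Cry2 probes.

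Arntl, the activator reported as a miR-142-3p target, had a normalised log2 signal of 0.84, 0.84 and 0.74 on the mimic arrays, against 1.06 and 1.11 on the scramble arrays. Both scramble arrays lay above all 3 mimic arrays, and the arrays of each group were close to each other. The means were 0.81 ± 0.06 (SD, n = 3) with the mimic and 1.08 ± 0.04 (SD, n = 2) with the scramble. The difference was −0.27 ± 0.19 (SE, 95% limits −0.71 to 0.16), or 1.21-fold lower, with an adjusted p of 0.405 in limma's fit. These limits contain 0, so a change was not detectable at this number of arrays. In bulk RNA fewer cells with a transcript and less transcript per cell cannot be told apart, and cells that took up no mimic were included.

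The probe of Arntl (A_55_P2408588, NM_007489) lies at chr7:120457261-120457320 on the plus strand of mm9 and was the single probe of the gene. All 6 mimic scans and all 4 scramble scans had it well above background. Within each row of the slide the Arntl difference was −0.27. Under 19 other ways of processing it ran from −0.41 to −0.19, and it passed the threshold in 0 of them, with adjusted p-values between 0.0588 and 0.968.

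Clock encodes the partner of the Arntl protein. Its signal was 0.53, 0.60 and 0.71 on the mimic arrays and 0.96 and 0.73 on the scramble arrays. The groups did not overlap, but mimic array 3 and scramble array 2 were nearly at the same level. The difference was −0.23 ± 0.20 (SE, 95% limits −0.69 to 0.23) with an adjusted p of 0.506 in limma's fit. The scans of a single array differed by up to 0.52 for this probe, the widest gap between scan days among the 7 genes, and the difference was −0.065 on the first scan day alone and −0.40 on the second.

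Among the repressors, Per1 stood closest to the threshold. Per1 is a light- and hormone-responsive E-box target whose protein works with the CRY proteins. Its probe gave 3.00, 3.48 and 3.06 on the mimic arrays, against 2.58 and 1.88 on the scramble arrays. All 3 mimic arrays were above both scramble arrays, and the scramble arrays were 0.70 apart. The means were 3.18 ± 0.26 (SD, n = 3) with the mimic and 2.23 ± 0.50 (SD, n = 2) with the scramble, a difference of 0.95 ± 0.27 (SE, 95% limits 0.33 to 1.58), or 1.94-fold. Its p was 0.00757 before and 0.0654 after adjustment in limma's fit.

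The size of the Per1 difference rested on which scramble array was used. Without scramble array 1 it was 1.30 with an adjusted p of 0.012, in a fit that called 26.9% of all genes. Without scramble array 2 it was 0.60 with an adjusted p of 0.246, in a fit that called 7.09% of all genes. Within slide row 1 it was 0.45 and within slide row 2 it was 1.60. The adjusted p passed 0.05 in 5 of 19 alternatives, among them the test limited to probes well above background on all 10 scans (adjusted p = 0.0362), where 9.78% of genes were called. With the 10 scans taken as separate samples, a fit that counts each array more than once and called 30.4% of all genes, Per1 had an adjusted p of 0.00278. The other fits that called Per1 had scan date and array as blocks (adjusted p = 0.0182, 13.1% of all genes called) or the replicate number as a block (adjusted p = 0.0219, 17.1% called). The fit with the replicate number also took each scan as a sample, so it too counts each array more than once. The sign was positive in 19 of 19.

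The second Per1 probe (A_55_P2019327), designed to the cDNA AK081813, stood well above background in 0 of 10 scans. It gave −2.40, −2.13 and −2.88 on the mimic arrays and −2.37 and −2.68 on the scramble arrays, and it therefore adds no measurement of Per1. The probe that was tested (A_55_P1970033, NM_011065) lies at chr11:68923364-68923423 on the plus strand of mm9.

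Per2 and Per3, the other PER repressors, and Cry1, one of the CRY repressors, had probes well above background in 0 of 10 scans, so no fold is given for them. The Per2 probe gave −2.76, −2.76 and −2.58 with the mimic and −3.36 and −2.05 with the scramble. The Per3 probe gave −2.36, −2.03 and −2.13 with the mimic and −1.54 and −1.63 with the scramble. The Cry1 probe gave −3.57, −2.54 and −3.35 with the mimic and −3.07 and −2.12 with the scramble. Their processed intensities lay between 12.5 and 61.6, where those of the tested Per1 probe lay between 497 and 1702. Each of the 3 genes had 1 probe, and whether these transcripts were low or the probes bound poorly cannot be told apart.

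Cry2, the other CRY repressor, was read by 2 probes. The brighter (A_55_P2016540, NM_009963) gave 2.86, 3.51 and 2.98 on the mimic arrays and 3.04 and 2.31 on the scramble arrays. The groups overlapped, since scramble array 1 lay above mimic arrays 1 and 3. The difference was 0.44 ± 0.29 (SE, 95% limits −0.24 to 1.11), with an adjusted p of 0.393 in limma's fit. It was 0.069 without scramble array 2 and 0.80 without scramble array 1.

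The second Cry2 probe (A_55_P1953708, ENSMUST00000111278) gave 1.03, 1.25 and 0.87 on the mimic arrays and 0.88 and −0.08 on the scramble arrays. Here too scramble array 2 was the low one and scramble array 1 lay within the mimic range. Its difference was 0.65 ± 0.30 (SE), with an adjusted p of 0.222 over all probes, of which 9.5% passed. Without scramble array 1 it was 1.13, and without scramble array 2 it was 0.17. Both Cry2 probes thus had a positive difference that did not pass the test.

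Nr1d1, the REV-ERB repressor that is itself an E-box target, showed the largest negative difference of the 7 genes. Its signal was 0.41, 0.58 and 0.90 on the mimic arrays, against 1.10 and 1.81 on the scramble arrays. All 3 mimic arrays were below both scramble arrays, which were 0.71 apart. The means were 0.63 ± 0.25 (SD, n = 3) with the mimic and 1.46 ± 0.50 (SD, n = 2) with the scramble. The difference was −0.83 ± 0.27 (SE, 95% limits −1.45 to −0.21), or 1.77-fold lower, with a p of 0.0151 before and 0.1 after adjustment in limma's fit.

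As for Per1, the size of the Nr1d1 difference depended on which scramble array was used. It was −1.18 without scramble array 1 and −0.47 without scramble array 2. Within slide row 1 it was −0.45 and within slide row 2 it was −1.23. With normexp background correction it was −0.48. Over 19 alternatives it was negative in 19 and passed the threshold in 4, in fits that called 13.1% to 30.4% of all genes. Among those fits were the ones that took each scan as a sample, with or without the replicate number as a block, and these count each array more than once. Nr1d1 and Per1, both known as E-box targets, thus had opposite signs, and neither passed the test.

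Nr1d2 encodes the second REV-ERB repressor. Its brighter probe (A_52_P303891, NM_011584) gave 1.20, 1.25 and 1.18 on the mimic arrays and 1.30 and 1.37 on the scramble arrays. The spread within groups was narrow and the groups did not overlap, but the difference was small, −0.12 ± 0.19 (SE, 95% limits −0.55 to 0.31), with an adjusted p of 0.731 in limma's fit. A second probe (A_55_P2148534, BC096461) gave −0.20, 0.32 and 0.32 with the mimic and 0.29 and −0.34 with the scramble, a difference of 0.17 ± 0.27 (SE) with an adjusted p of 0.733 over all probes. That probe stood well above background in 6 of 6 mimic and 3 of 4 scramble scans. The 2 probes differed in sign, and their mean gave 0.027.

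Dbp encodes the D-box activator whose transcription follows the E-box activators closely. Its brighter probe (A_55_P2032079) gave 4.61, 4.81 and 4.78 on the mimic arrays and 4.81 and 3.83 on the scramble arrays. Scramble array 1 lay within the mimic range and scramble array 2 lay 0.98 lower, so that the groups overlapped. The difference was 0.42 ± 0.29 (SE, 95% limits −0.25 to 1.09) with an adjusted p of 0.411 in limma's fit. It was 0.91 without scramble array 1 and −0.070 without scramble array 2.

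The second Dbp probe (A_55_P2032081), designed to the same transcript NM_016974 and only a short distance upstream, did not share the low value of scramble array 2. It gave 3.66, 4.05 and 3.82 on the mimic arrays and 4.05 and 3.85 on the scramble arrays. Its difference was −0.11 ± 0.21 (SE) with an adjusted p of 0.792 over all probes. The Dbp probes lie at chr7:52965461-52965520 and chr7:52965322-52965381 on the plus strand of mm9.

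**Figure D2:**
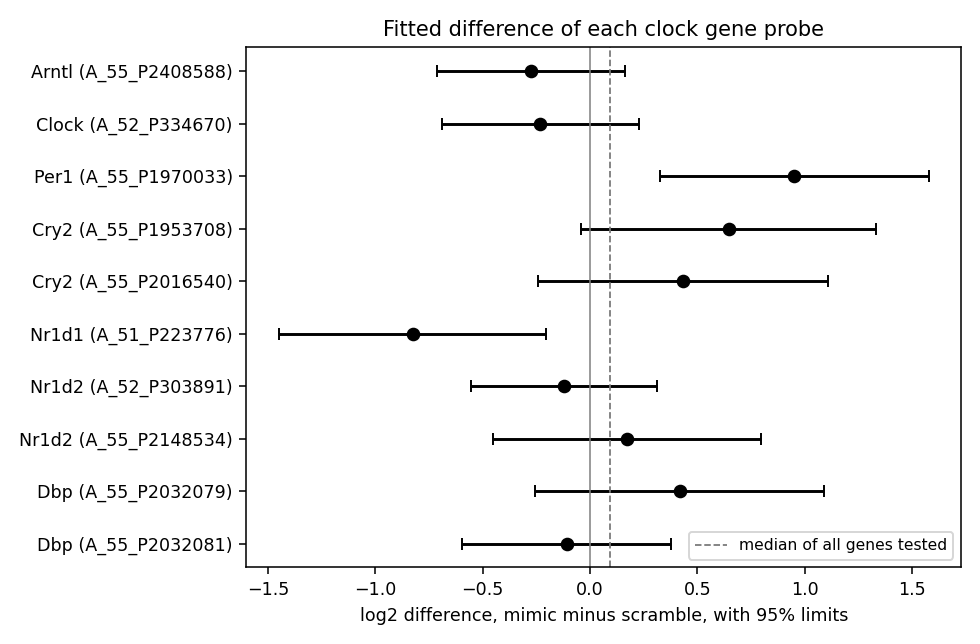
Fitted log2 difference, mimic minus scramble (horizontal axis), of each tested clock gene probe with its 95% limits from the fit over all probes; the dashed line is the median over all genes tested (0.093). The limits of Per1 (0.33 to 1.58) and Nr1d1 (−1.45 to −0.20) leave out 0, and those of the other 8 probes include it.

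The scramble arrays lay further apart for some of the 7 genes than for others. The gap between the 2 scramble arrays had a median of 0.70 over the 7 clock genes and of 0.38 over all genes tested, whose 90th percentile was 0.91. It was 0.98 for Dbp, above that percentile, and 0.73 for Cry2, 0.71 for Nr1d1 and 0.70 for Per1, below it. It was 0.24 for Clock, 0.07 for Nr1d2 and 0.05 for Arntl. The absolute difference between mimic and scramble had a median of 0.42 over the clock genes and 0.32 over all genes.

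The slide had rows that split the groups: row 1 held mimic arrays 1 and 3 with scramble array 1, and row 2 held mimic array 2 with scramble array 2. Per1, Nr1d1, Arntl, Clock and Nr1d2 kept their sign in both rows. For Cry2 the difference was −0.13 in row 1 and 1.19 in row 2, and for Dbp it was −0.11 and 0.98. Row 2 holds 1 array of each group, so its values have no replicate check. With the row as a block in the fit, Per1 had a difference of 0.95 with an adjusted p of 0.132.

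**Figure D3:**
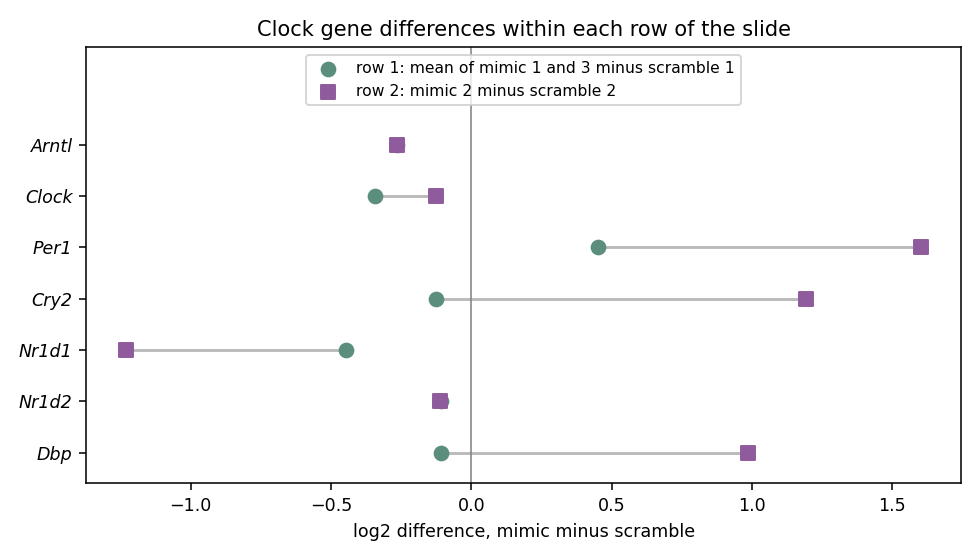
Log2 difference, mimic minus scramble (horizontal axis), of the 7 tested clock genes within each row of the slide: row 1 (circles, mean of mimic arrays 1 and 3 minus scramble array 1) and row 2 (squares, mimic array 2 minus scramble array 2). Cry2 and Dbp change sign between the rows, Per1 is higher in both (0.45 and 1.60) and Nr1d1 is lower in both (−0.45 and −1.23).

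A wider list of 28 clock-related genes was read in the same fit. It comprised paralogs of the core genes, kinases and ubiquitin ligases that act on PER and CRY proteins, cofactors and clock-controlled genes. Of these, 21 were tested, and 2 rose and 1 fell with the mimic, against 9.74% of all genes called in either direction. The median difference of the 21 was 0.01. The remaining 7 stood well above background in 0 of 10 scans, among them Npas2, Hlf and Ciart.

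Usp2, which encodes a deubiquitinating enzyme that acts on clock proteins, fell with the mimic. It gave −1.62, −1.75 and −1.24 on the mimic arrays, against 0.82 and 0.65 on the scramble arrays. The groups were far apart, and the difference was −2.27 ± 0.23 (SE, 95% limits −2.79 to −1.75), or 4.83-fold lower, with an adjusted p of 0.000457 in limma's fit. Only 2 of 6 mimic scans had the probe well above background, against 4 of 4 scramble scans, so its mimic level is near background and the size of the fall is uncertain. It passed the threshold in 18 of 18 alternatives, but with normexp background correction the difference was −1.21 (adjusted p = 0.00253 in limma's fit), and over the alternatives it ran from −2.51 to −1.21.

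Arntl2, the paralog of Arntl that can pair with the Clock protein, rose with the mimic. It gave 0.34, 0.61 and 0.46 on the mimic arrays, against −0.54 and −0.68 on the scramble arrays. The difference was 1.08 ± 0.20 (SE, 95% limits 0.63 to 1.54), or 2.12-fold, with an adjusted p of 0.0125 in limma's fit. It missed the threshold in 4 of 18 alternatives, with an adjusted p of 0.0595 without mimic array 2, 0.0578 without mimic array 3, 0.0937 after array-median scaling and 0.212 when dim probes were kept. Its probe stood well above background in 6 of 6 mimic and 3 of 4 scramble scans, and 2 further Arntl2 probes were too dim to be tested.

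Wee1, a clock-controlled gene for a kinase that restrains entry into mitosis, also rose. It gave 1.29, 1.64 and 1.33 on the mimic arrays, against 0.72 and 0.41 on the scramble arrays. The difference was 0.86 ± 0.22 (SE), or 1.81-fold, with an adjusted p of 0.0454 in limma's fit. That call was lost in 9 of 19 alternatives, among them the fits without mimic array 1 (adjusted p = 0.117), 2 (0.152) or 3 (0.128) and the fit without scramble array 2 (0.139).

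The 6 genes next in order of p did not pass the test. The E-box repressor Bhlhe41 had a difference of −0.80 ± 0.35 (SE) with an adjusted p of 0.196 in limma's fit, from a probe that stood well above background in only 2 of 6 mimic and 2 of 4 scramble scans. Its relative Bhlhe40 had 0.42 ± 0.19 (SE) with an adjusted p of 0.211 in that fit. The D-box repressor Nfil3 had a difference of 0.37, the kinases Prkaa1 and Csnk1d had 0.38 and 0.49, and Nampt, which makes a precursor of NAD, had 0.34. Their adjusted p-values lay between 0.312 and 0.339. A second, dimmer Csnk1d probe (A_52_P477369) had the opposite sign, −1.17 ± 0.36 (SE) with an adjusted p of 0.0829 over all probes, and its groups did not overlap.

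The kinase gene Gsk3b, named here after its values were seen, did not pass through its brightest probe, which had a difference of −0.11. Its dimmest probe (A_51_P514412) gave −0.32, −0.43 and 0.03 on the mimic arrays, against 0.46 and 1.26 on the scramble arrays. That difference was −1.10 ± 0.28 (SE) with an adjusted p of 0.0473 over all probes, of which 9.5% passed, and the third Gsk3b probe gave −0.03. The dim Csnk1d and Gsk3b probes each stood well above background in 4 of 6 mimic and 4 of 4 scramble scans.

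**Figure D4:**
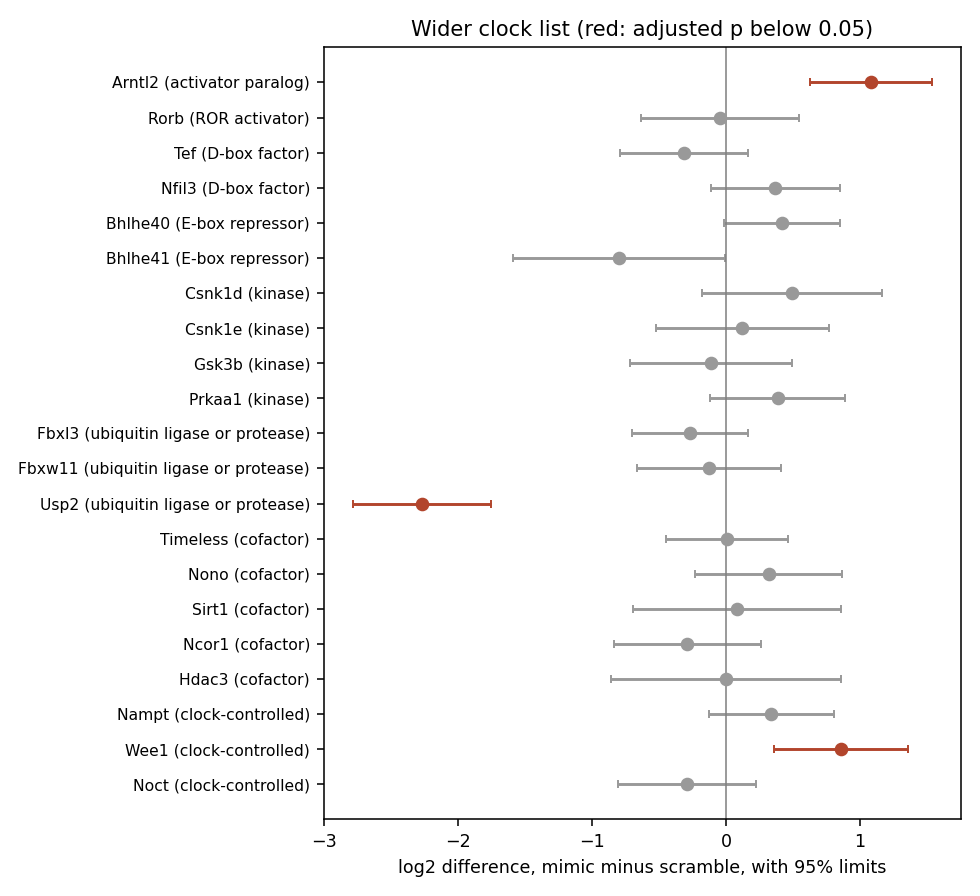
Log2 difference, mimic minus scramble (horizontal axis), with 95% limits for the 21 tested genes of the wider clock list, grouped by role. Red marks adjusted p below 0.05: Usp2 (−2.27), Arntl2 (1.08) and Wee1 (0.86).

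Muscle markers moved with the groups in which the clock genes were read. Of 10 tested markers of differentiated myocytes, 9 were called lower with the mimic, against 3.88% of all genes tested. Among these 9, Casq2, Tnnc1 and Mylpf met the filter through the scramble group. They stood well above background in 0, 1 and 2 of 6 mimic scans, against 4 of 4 scramble scans. Their mimic levels, which also enter the sums, are near background, and for Casq2 only a bound holds, at least 12.95-fold lower. The linear signal relative to the 75th percentile, summed over the 10, was 26.3 to 32.4 on the mimic arrays. On the scramble arrays this sum was 564.8 to 566.9. Of 7 myoblast markers 5 were tested, and 4 of these were called lower. The sums of the 5 were 226.6 to 240.2 on the mimic arrays and 431.5 to 487.8 on the scramble arrays. Of 7 leukocyte markers 3 were tested and 0 passed, and of 4 endothelial markers 1 (Kdr) was tested and did not pass; the other 4 and 3, and all 5 adipocyte markers, stood well above background in 0 of 10 scans. The part of these muscle differences in the values of Usp2, Arntl2, Wee1, Per1 and Nr1d1 was not tested.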

How the data were processed

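Cy3-labelled RNA of C2C12 myoblasts was read on 1-colour Agilent arrays, per the labels' protocols. The deposited scanner files hold spot intensities on a linear scale that the authors' scanner software had already corrected for background. The file headers name Feature Extraction 12.0.0.7 and the submitters' processing notes 10.7.3.1, and probe coordinates are on mm9 per the file headers. The deposited series matrix also holds intensities, whose log2 values tracked each scan at r of at least 0.996. Its column medians lay between 175.5 and 353.8, and how the authors normalised it between arrays is not stated.

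Signals were log2-transformed after scaling to each scan's 75th percentile of non-control probes. Outlier spots were dropped, and both scans of an array position were averaged. A probe was kept when at least 0.5 of its spots were well above background on at least 4 of 10 scans, which left 17455 probes. The kept probe with the highest mean stood for its gene, which gave 13677 genes. Per scan, 25.4% to 34.6% of spots were well above background, and at most 1 was saturated. The number of arrays limits the precision.

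RefSeq tables of GRCm38.p6 gave current gene names and matched 28026 probes by accession, 3418 by symbol and 295 by synonym, while 23942 kept the name in the file. The comparison used limma 3.58.1 (lmFit, eBayes) under R 4.3.3, with 3 residual degrees of freedom and 5.26 from the prior, Benjamini-Hochberg adjustment and a threshold of 0.05. On simulated data for this comparison (13630 genes, 20 runs) the fit recovered 70.5% of genes raised 4-fold, 10.5% of those raised 2-fold and 0.2% of those raised 1.5-fold. In the simulation a far smaller share of genes was changed than the 9.74% called in the data. Each gene's spread over these arrays was also taken as its true spread. These rates therefore do not say what share of such changes was called in the data.

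The genes, the wider clock list and the marker lists were chosen with earlier results of these data known. The genes named are all 10 clock genes, each called gene of the wider list and the 6 next by p. Same-numbered mimic and scramble scans were checked as pairs by correlating their deviations from the group means (−0.28 to 0.17), and they were not taken as pairs. Alternatives were other background corrections, scalings, filters, probe rules, scan days, blocks, the series matrix and leaving out each array.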

Additional observations from a re-analysis of the deposited data

How the results depend on the processing

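With 3 arrays against 2, some changes near 2-fold were called, as for Arntl2 (2.12-fold) and Wee1 (1.81-fold). Others were not, as for Per1 (1.94-fold). The 1332 genes called became 761 with scaling to the array median, 407 without a filter on dim probes, 4154 with 10 scans as separate samples, 810 with the slide row as a block (chosen after seeing the data) and 641 to 3671 when each array was left out. The cause of each shift was not tested. Taking the percentile only over probes that all 10 scans had well above background gave 674 rises and 664 falls (50.4% rises, against 60.2%), and the median of all genes was then −0.041, against 0.093.

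The count of clock genes higher was 0. It became 1 with the filter on all 10 scans (9.78% of all genes called), with 10 scans as separate samples (30.4%), and with scan date and array as blocks (13.1%), and 0 to 2 when each array was left out, 2 being without scramble array 1 (26.9%). The count lower was 0. It became 1 with 10 scans as separate samples and with scan date and array as blocks, and 0 to 1 when each array was left out. The count of clock gene probes called was 0, with 1, 3 and 2 under those 3 settings in the order given first, and 0 to 4 when each array was left out. Of the wider list 3 genes were called, against 1 with scaling to the array median, without the filter and with the filter on all 10 scans, 5 with 10 scans as separate samples, and 1 to 4 when each array was left out. Under the filter on all 10 scans Usp2 and Arntl2 were not tested, so the lower count there does not come from a failed test of them. With 1 scramble array left, that array was assumed to vary like the mimic arrays.

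With the replicate number as a block, 2336 genes (17.1%) were called. Per1 (0.92, adjusted p = 0.0219 in limma's fit) and Nr1d1 (−0.84, adjusted p = 0.049) then passed, which made 1 clock gene higher, 1 lower and 1 clock gene probe called. The numbers were not taken to pair the samples, and for 0 of the 4 scramble scans was the same-numbered mimic scan the best correlated. The sign turned for Nr1d2 with the mean of its probes (0.027), for Dbp and its brighter probe without scramble array 2 (−0.070, against 0.91 without scramble array 1) and for the second Nr1d2 probe without scramble array 2 (−0.14, against 0.49 without scramble array 1).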
